A study of Mus musculus with 6 samples.

Results

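The genes that make, break down and respond to cyclic AMP were examined in messenger RNA sequencing of islets of the mouse pancreas, which are small groups of endocrine cells. They were taken as the protein-coding genes with an Adcy, Pde, Akap or Rapgef symbol or a symbol of a protein kinase A subunit (Prkac, Prkar), together with Creb1 and Crem. The rule gave 66 genes, of 17668 protein-coding genes in the deposited annotation and 47643 genes in the count tables. They comprise 10 adenylyl cyclases, 8 phosphodiesterases that prefer cyclic AMP and 8 that split both cyclic AMP and cyclic GMP. Another 7 encode catalytic or other subunits of phosphodiesterases that prefer cyclic GMP. A further 3 carry a Pde symbol but do not hydrolyse a cyclic nucleotide. The effectors are 2 catalytic and 4 regulatory subunits of protein kinase A (PKA), 15 A-kinase anchoring proteins (AKAPs), 7 exchange factors for Rap proteins (RAPGEFs) and 2 transcription factors of the CREB family.

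Cyclic AMP is an intracellular messenger that adenylyl cyclases make from ATP when hormone receptors activate the stimulatory G protein, and that phosphodiesterases hydrolyse. In beta cells it amplifies glucose-induced insulin secretion, as after a meal when the gut hormones GLP and GIP bind their receptors. It acts mainly through PKA, whose regulatory subunits release the catalytic subunits on binding it and which AKAPs hold near their substrates, and through the Epac exchange factors, which load Rap proteins with GTP. In the nucleus, PKA phosphorylates CREB, which then switches on target genes.

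The TG libraries came from mice with a transgene for the microRNA miR-203 that is labelled as specific to beta cells, and the WT libraries came from wild-type mice. According to the labels, the mice of both genotypes were males, aged 10 weeks and fasted for 12 h, and their islets were frozen in liquid nitrogen. The strain, the promoter that drives the transgene and how many animals gave each library is information not given in the sources used here. A p-value here therefore measures only how far these samples spread, and that spread may be technical. Each genotype had 3 libraries. TG 1, TG 2, WT 1 and WT 2 were deposited in the first table and TG 3 and WT 3 in the second.

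Total counts per library were between 21615905 and 27482339 in TG and between 20176456 and 24631199 in WT. At the Mir203 gene itself, TG 1, TG 2 and TG 3 had 170, 164 and 150 counts, and the library labelled WT 1 had 39 counts, against 0 in WT 2 and WT 3. That library goes against its label in this respect, and WT 1 below always means the library labelled so. In the second table, TG 3 had 27240 counts of Xist and WT 3 had 25145, although the labels say male. The libraries of the first table had 4 to 13 counts of Xist. Summed Y-linked counts were 1 in TG 3 and 16 in WT 3, against 5463 to 7468 in the first table. A difference of sex therefore cannot be told apart from the table, which was a term of the fits. The summed level of 10 beta-cell markers was 56423, 224372 and 54720 CPM (the read count scaled by the effective library size) in TG 1, TG 2 and TG 3, against 238368, 230779 and 117163 CPM in libraries WT 1, WT 2 and WT 3. TG 1 and TG 3 lay below all WT libraries in this sum, TG 2 lay within the WT range, and 9 of the 10 markers were fitted lower in TG. TG 2 and WT 1 were the closest of all pairs of libraries, with a chi-square per degree of freedom of 31.6 between their counts over 13065 genes, against 42.4 between WT 1 and WT 2. Whether the label of TG 2 or WT 1 is wrong, or their samples were mixed, was not tested. In whole islets, fewer cells of a type and less RNA per cell cannot be told apart.

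Across the cyclic AMP genes, levels of the abundant core components were close in TG and WT islets. The largest fitted fold changes above 0 were those of the scarce phosphodiesterases Pde11a and Pde6a and of the cyclase Adcy1, and the largest below 0 were those of Prkar2b, Rapgef4 and Rapgef1. Of the 66 genes, 60 passed the filter on low counts and were tested. The fitted log2 fold change, TG over WT, was above 0 for 34 and below 0 for 26 of them, with a median of 0.07, and over all 16072 genes tested 48.1% were above 0, with a median of -0.01. The quasi-likelihood test of edgeR, adjusted by the Benjamini-Hochberg method over all 16072 genes, called 0 genes, a background of 0.0% in either direction, and hence 0 of the cyclic AMP genes. The smallest adjusted p over all genes was 0.199.

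At an unadjusted p under 0.05 in edgeR, 7 of the 60 genes (11.7%) were higher in TG, against a background of 9.32% of all genes, and 3 (5.0%) were lower, against 4.81%. Both shares were near the background. The 7 were Pde6a, Pde11a, Akap17b, Rapgef5, Pde1a, Adcy1 and Akap3, and the 3 were Rapgef4, Rapgef1 and Prkar2b. DESeq2 called 4 higher (Pde6a, Pde11a, Akap17b and Rapgef5) and the same 3 lower at an adjusted p under 0.05, where it called 3.83% of all genes higher and 0.846% lower. The voom method of limma called 0 genes at an adjusted p under 0.05, and at an unadjusted p under 0.05 it gave 6 higher and 3 lower, against backgrounds of 8.48% and 5.43%. The counts turned on TG 2. Without it, edgeR called 10 of 61 tested genes higher and 4 lower, against 8.82% and 4.39% of all genes. When both TG 2 and the library labelled WT 1 were left out, it called 5 higher and 3 lower, against 6.92% and 2.73%. Without the low-count filter edgeR called 9 higher and 3 lower of all 66 genes, against 4.37% and 1.25% of 29725 genes. Most of the 66 pass the filter, while the 29725 include many genes that do not. Among the 16072 genes that pass it, the same fit called 1144 higher and 353 lower. The bias-adjusted form of the same test called 0.

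**Figure D1:**
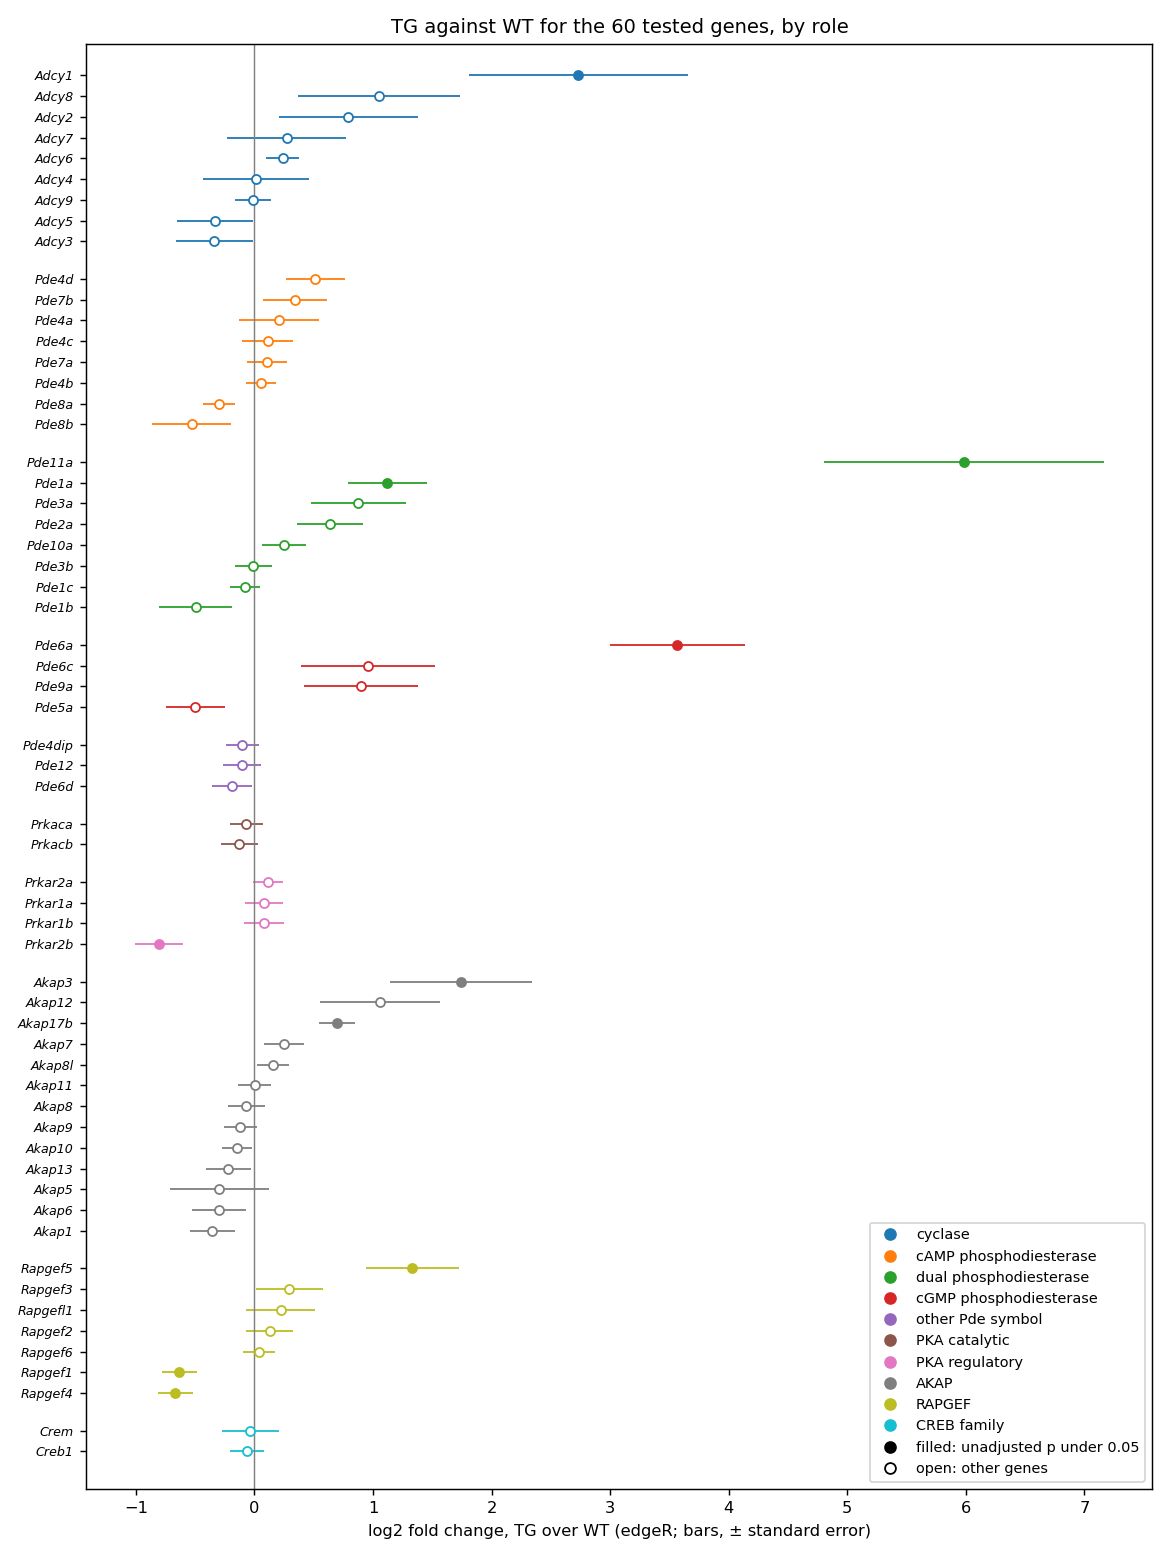
Log2 fold change, TG over WT, of the 60 tested genes on the horizontal axis, with genes grouped by role down the page; points are edgeR estimates, bars are ± 1 standard error, and filled points have an unadjusted p under 0.05. Pde11a and Pde6a lie farthest to the right at 5.99 and 3.57, and the PKA subunits other than Prkar2b lie near 0.

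TG 2 differed less from WT than TG 1 and TG 3 did. Each library was measured against the mean WT level of the same table. The median absolute log2 difference over the 60 genes was 0.309 in TG 1, 0.177 in TG 2 and 0.362 in TG 3. It was 0.096 in WT 1 and in WT 2, which differ from their own mean by the same amount. That mean contains WT 1 and WT 2 but no TG library, so the WT and TG values cannot be compared directly. For TG 3 the mean is WT 3 alone, so its value also holds the noise of a single WT library. The number of genes more than 1 log2 unit away was 8 in TG 1, 2 in TG 2 and 9 in TG 3, or 13.3%, 3.33% and 15% of them. Over all genes tested these shares were 9.56%, 1.12% and 11.5%. All TG libraries lay above all WT libraries for 5 genes, namely Akap7, Rapgef5, Pde6a, Pde11a and Pde1a, against a background of 6.96% of all genes. They lay below all WT libraries for 3 genes, namely Rapgef1, Rapgef4 and Pde8a, against 6.42%.

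**Figure D2:**
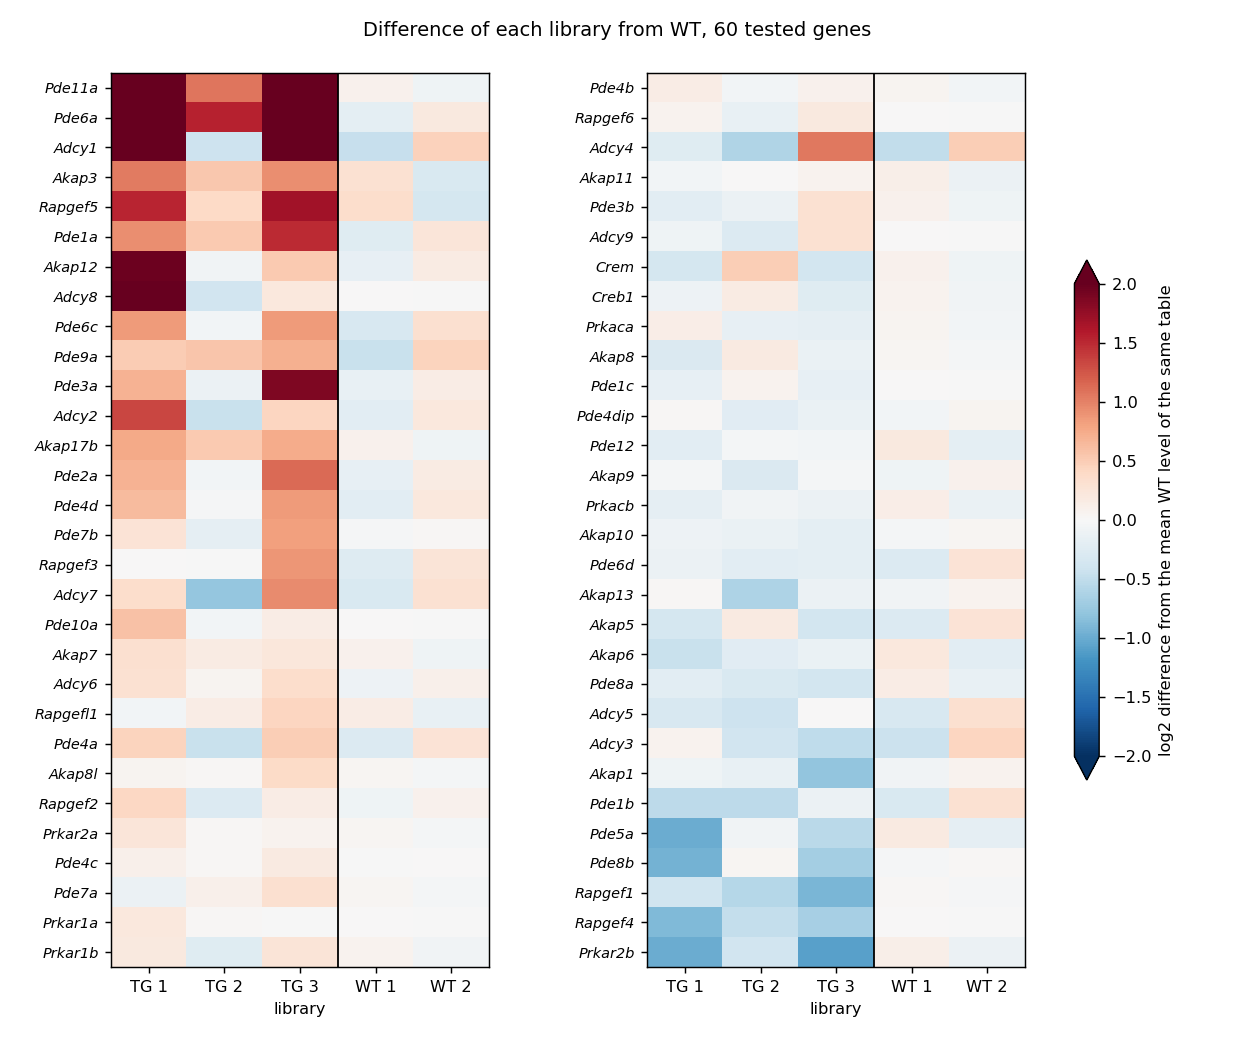
Colour gives the log2 difference of each library from the mean WT level of its own table for the 60 tested genes, ordered by the fitted fold change; WT 3 is the only WT library of its table and is not drawn. Red cells (higher) and blue cells (lower) are strongest in TG 1 and TG 3, and the median absolute difference of TG 2 is 0.177. WT 1 and WT 2, at 0.096, are measured from a mean that contains them, so their columns are paler by construction.

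Sequences in the 3′ untranslated regions (3′ UTRs) that pair with the seed of miR-203-3p, the mature strand named after the transgene's microRNA, were counted because a microRNA pairs with its targets mainly through bases 2 to 8. The mature sequence from RefSeq (GRCm38.p6, chr12:112130927-112130948, plus strand) is shown with these bases in capitals. The sites shown after it are those of the 3 genes that were lower at an unadjusted p under 0.05 and the 8-base sites of Prkacb and Adcy1, whose fold changes differ. They were read from the GENCODE transcripts of build GRCm38, 5′ to 3′ on the transcribed strand, with the matching motif in capitals.
mmu-miR-203-3p: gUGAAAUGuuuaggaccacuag
Prkar2b, site of 8 bases: gcaataaagtaCATTTCAActtctttgaca
Prkar2b, other site: aaagtgtcaatCATTTCAttttctacctt
Rapgef4: atagaaagtaaCATTTCAgaagagcacaa
Rapgef1: acaggtcctttCATTTCAgtctttgcccc
Prkacb, site of 8 bases: catcgtgaggaCATTTCAAgcactcttgca
Adcy1, site of 8 bases: ctgagaattagCATTTCAAcggacatgcta

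The capitals lie at chr12:31959794-31959801 and chr12:31959912-31959918 on the minus strand for Prkar2b, at chr2:72257072-72257078 and chr2:29739630-29739636 on the plus strand for Rapgef4 and Rapgef1, at chr3:146731314-146731321 on the minus strand for Prkacb and at chr11:7177293-7177300 on the plus strand for Adcy1. The motifs searched, on the transcribed strand of the longest annotated 3′ UTR of each gene, were CATTTCA (opposite bases 2 to 8), CATTTCAA (the same with an A opposite base 1, here called a site of 8 bases) and ATTTCAA (opposite bases 2 to 7 with that A), and a CATTTCAA was not counted again under the shorter motifs it contains. Of the 60 tested genes, 26 (43.3%) held at least 1 of the motifs. The share was 25.2% of 13851 tested genes with a 3′ UTR. It was 31.1% of those with a 3′ UTR as long as the middle 50% of the cyclic AMP genes. The 43.3% also covers cyclic AMP genes with longer or shorter 3′ UTRs, so it is not matched in length to the 31.1%. The median 3′ UTR had 1994 bases in the cyclic AMP genes and 1181 bases over all genes, and the motifs occurred 0.261 and 0.221 times per kilobase.

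A CATTTCA or CATTTCAA site was present in 19 of the 60 genes. Of these 19, 11 (57.9%) were fitted lower in TG, against 52.5% of all genes with such a site, and their median log2 fold change was -0.04, against -0.02. Of the 34 genes with none of the motifs, 13 (38.2%) were fitted lower, against 50.4% of all such genes. At an unadjusted p under 0.05, 3 of the 19 (15.8%) were lower, against 6.26% of all genes with such a site. Of the genes with none of the motifs, 0 of 34 were lower at that threshold, against 4.88% of all such genes. Genes that were higher or near 0 also held such a site. Sites of 8 bases occurred in 6 genes, with log2 fold changes of -0.81 for Prkar2b, -0.30 for Akap6, -0.13 for Prkacb, 0.11 for Pde7a, 0.88 for Pde3a and 2.73 for Adcy1. A match of letters is a description of the sequence, and whether miR-203 acts at any of these sites was not tested.

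**Figure D3:**
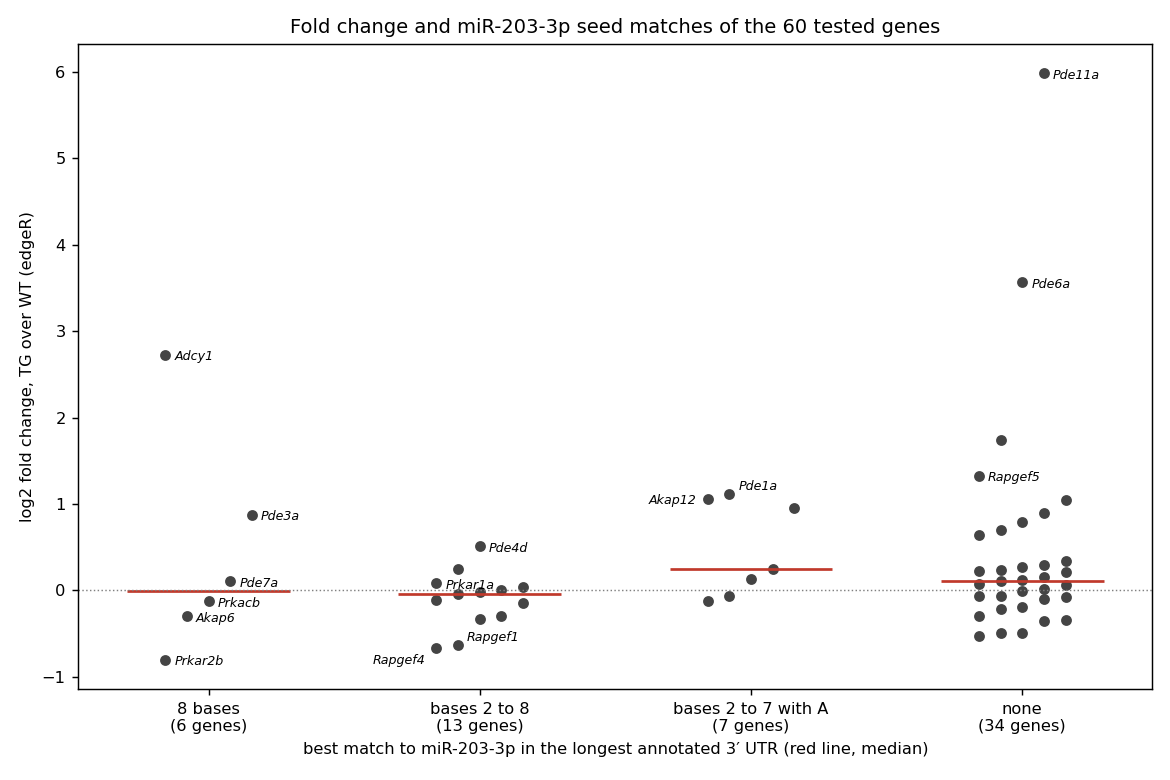
Log2 fold change, TG over WT (vertical axis), of the 60 tested genes by their best match to the miR-203-3p seed in the longest annotated 3′ UTR; each point is a gene and the red line is the median of its class. Genes with a site of 8 bases run from Prkar2b at -0.81 to Adcy1 at 2.73, and Pde11a and Pde6a, with the largest fold changes, hold none of the motifs.

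Among the adenylyl cyclases, which make cyclic AMP, islets of both genotypes were dominated by Adcy6 and Adcy9, and the scarce Adcy1 differed most. Shares of the summed cyclase FPKM, the deposited reads per length and depth, were taken within each library because the authors normalized the tables separately. Adcy6, a cyclase inhibited by calcium, held 49.0, 55.4 and 51.0% in TG 1, TG 2 and TG 3, against 48.2, 48.0 and 52.1% in WT 1, WT 2 and WT 3. Adcy9, a cyclase with little response to forskolin, held 29.8, 35.1 and 34.5% in the TG libraries, against 41.4, 35.3 and 36.3% in the WT libraries. Together they made up most of the family in every library. Adcy6 was at 112, 94.0 and 156 CPM in the TG libraries, against 84.4, 97.1 and 122 CPM in the WT libraries, with a log2 fold change of 0.24 (SE 0.14), and that of Adcy9 was -0.01 (SE 0.15). For both, TG and WT libraries overlapped.

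Adcy1, a cyclase activated by calcium and calmodulin that is best known from neurons, was at 30.8, 1.79 and 10.3 CPM in libraries TG 1, TG 2 and TG 3, against 1.73, 3.70 and 1.23 CPM in libraries WT 1, WT 2 and WT 3. TG 1 and TG 3 were above every WT library, while TG 2 lay among them. The log2 fold change of Adcy1 (chromosome 11, 7063489 to 7178506, GRCm38) was 2.73 (SE 0.92), with an adjusted p of 0.276 in edgeR (Benjamini-Hochberg). It was 1.06 without TG 1 and 3.33 without TG 2, where the edgeR adjusted p was 0.00211. The adjusted p of Adcy1 ranged from 2.66e-17 to 0.959 across the alternatives. The lowest was from edgeR without the low-count filter, and the bias-adjusted form of that fit gave 0.287. DESeq2 did not call it, at an adjusted p of 0.158.

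Adcy8, the other cyclase activated by calcium and calmodulin and the main calcium-sensing cyclase described in beta cells of rodents, had 8.03, 1.151 and 4.52 CPM in the TG libraries, against 1.67, 1.63 and 3.85 CPM in the WT libraries. Only TG 1 and TG 3 exceeded the highest WT value, and the fitted log2 fold change of 1.05 (SE 0.68) was -0.16 without TG 1. Adcy5, linked to human type 2 diabetes risk, had 1.74, 1.59 and 2.95 CPM in the TG libraries, against 1.73, 2.99 and 2.93 CPM in the WT libraries, which overlap, and its log2 fold change was -0.33 (SE 0.32). Adcy4, a cyclase stimulated by G protein beta-gamma subunits, was at 5.77, 4.37 and 11.7 CPM in the TG libraries, against 4.75, 9.90 and 5.38 CPM in the WT libraries, with TG 3 the highest, WT 2 next and a log2 fold change of 0.01 (SE 0.45). The fold changes of Adcy2, Adcy3 and Adcy7 lay between -0.34 and 0.79 on the log2 scale. Adcy10, the soluble cyclase activated by bicarbonate, did not pass the filter on low counts, with 5 to 6 counts per TG library and 3 to 21 per WT library. The summed cyclase FPKM was 36.1, 26.9 and 55.4 in TG 1, TG 2 and TG 3, against 27.6, 32.0 and 42.9 in WT 1, WT 2 and WT 3.

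**Figure D4:**
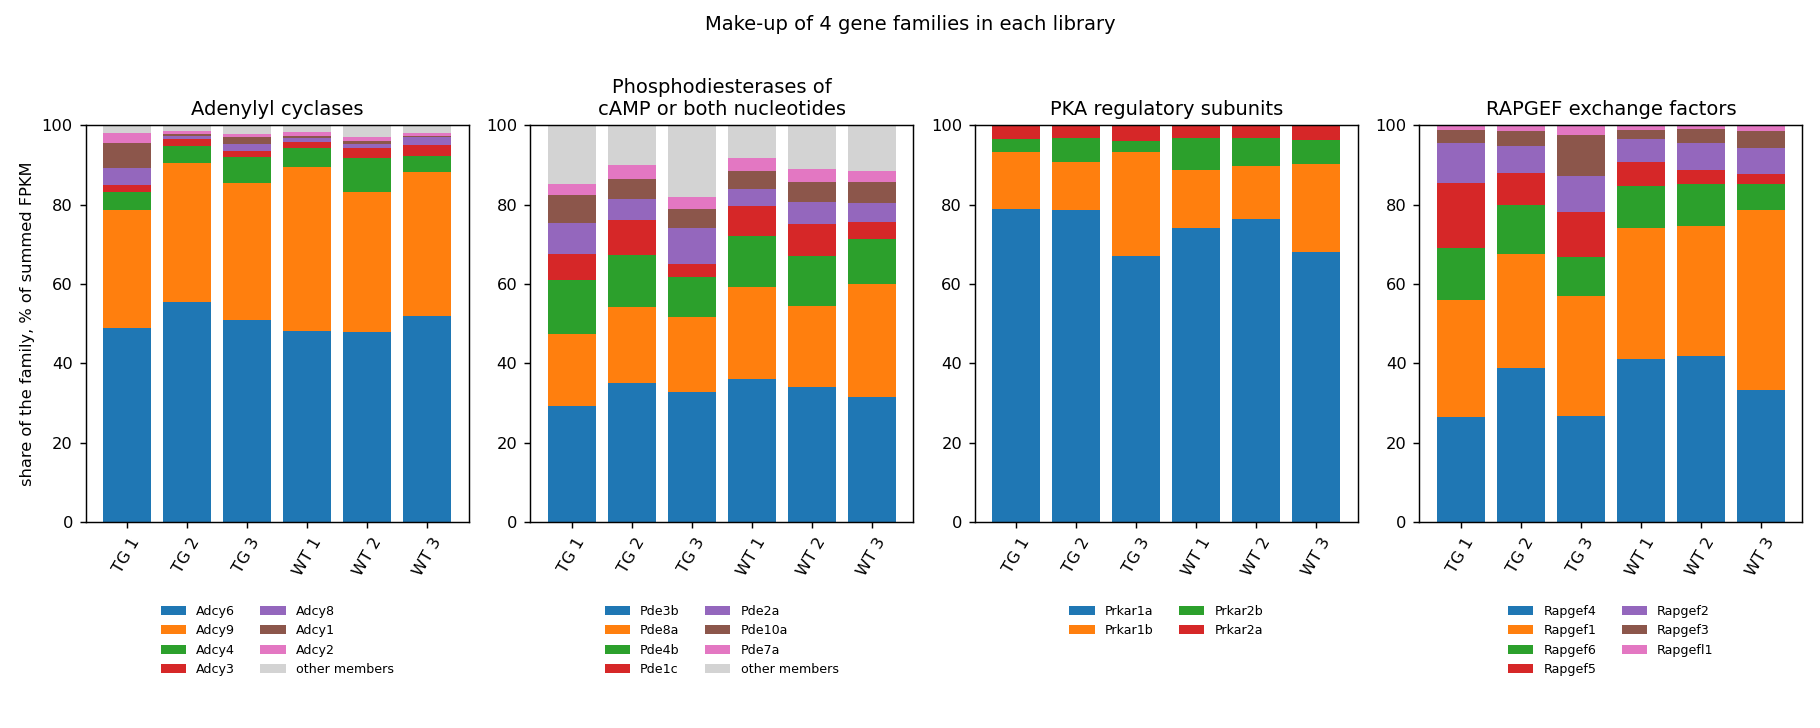
Share of each member in the summed FPKM of its family (vertical axis, percent) in each library, with TG libraries left of WT libraries. Adcy6 and Adcy9, Pde3b and Pde8a, Prkar1a, and Rapgef4 with Rapgef1 hold the largest shares, and the Rapgef5 share is larger in every TG library than in any WT library.

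Of the phosphodiesterases that prefer cyclic AMP, none of the 8 tested reached an unadjusted p under 0.05 in edgeR. Their log2 fold changes lay between -0.53 (Pde8b) and 0.51 (Pde4d). Pde8a, a cyclic AMP phosphodiesterase resistant to the general inhibitor IBMX, was the most abundant per length. It was at 49.3, 46.0 and 48.1 CPM in libraries TG 1, TG 2 and TG 3, against 62.9, 51.5 and 62.5 CPM in libraries WT 1, WT 2 and WT 3. All TG libraries lay below all WT libraries, with TG values within a narrow range. The log2 fold change of Pde8a was -0.30 (SE 0.14), with an adjusted p of 0.371 in edgeR (Benjamini-Hochberg) that ran from 0.221 to 0.9997 over the alternatives. Its paralog Pde8b, which limits cyclic AMP in beta cells of rodents, was scarcer, with 2.57, 5.56 and 2.66 CPM in the TG libraries, against 5.29, 5.50 and 4.55 CPM in the WT libraries. Its TG 1 and TG 3 levels were below every WT library and that of TG 2 was above, and its fold change was -0.53 (SE 0.33).

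Of the PDE4 enzymes, which rolipram inhibits, Pde4d had the largest fold change. Pde4b, the most abundant of them, had 96.4, 83.6 and 68.9 CPM in the TG libraries, against 90.1, 84.3 and 65.2 CPM in the WT libraries, which overlap, with a log2 fold change of 0.06 (SE 0.12). Pde4d was at 23.0, 14.3 and 21.4 CPM in the TG libraries, against 12.6, 16.9 and 11.7 CPM in the WT libraries, with TG 1 and TG 3 above every WT library and TG 2 among them. Its log2 fold change was 0.51 (SE 0.25), and without TG 2 edgeR gave 0.73 at an adjusted p of 0.0434, within a range of 0.0434 to 0.9997 over the alternatives. Pde4a and Pde4c had log2 fold changes of 0.21 and 0.11. Pde7a, another cyclic AMP phosphodiesterase, was at 14.6, 17.3 and 14.1 CPM in the TG libraries, against 16.5, 15.5 and 11.2 CPM in the WT libraries, and these overlapped. The log2 fold changes of Pde7a and Pde7b were 0.11 and 0.34.

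The phosphodiesterases that split both cyclic nucleotides held the gene with the largest fold change of the whole set, Pde11a, beside an even Pde3b. Pde3b, which is inhibited by cyclic GMP, is activated by insulin and restrains insulin secretion, had 136, 145 and 144 CPM in libraries TG 1, TG 2 and TG 3, against 167, 148 and 117 CPM in libraries WT 1, WT 2 and WT 3. The WT values spanned the TG values, and the log2 fold change of Pde3b was -0.01 (SE 0.15). It held 32.4 ± 2.93% of the summed FPKM of the 16 phosphodiesterases of cyclic AMP or of both nucleotides in TG and 33.9 ± 2.36% in WT (SD, n = 3 each), the largest share of these enzymes. Pde1c, activated by calcium and calmodulin, was at 89.9, 106 and 41.4 CPM in the TG libraries, against 101, 101 and 46.5 CPM in the WT libraries, and was lower in both libraries of the second table. Its fold change of -0.08 (SE 0.13) and that of Pde10a, 0.25 (SE 0.18), were within 2 standard errors of 0.

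Pde11a (chromosome 2, 75989141 to 76338774, minus strand), which degrades cyclic AMP and cyclic GMP at similar rates, was at 13.5, 0.913 and 10.96 CPM in libraries TG 1, TG 2 and TG 3, against 0.216, 0.132 and 0.0438 CPM in libraries WT 1, WT 2 and WT 3. The raw counts behind these levels were 387, 23 and 264 in the TG libraries, against 4, 3 and 1 in the WT libraries. Every TG library was above every WT library, with TG 2 far below TG 1 and TG 3. Over the summed counts the ratio of TG to WT was 69.2 (95% exact interval 34.9 to 161), and for TG 2 against WT 1 and WT 2 it was 5.38 (2.24 to 14.8). These intervals hold counting error alone and leave out the spread between libraries. PCR copies of a molecule cannot be recognised in such reads either. With so few WT reads, the fitted log2 fold change of Pde11a, 5.99 (SE 1.18), moves with the prior count, and it lay between 4.55 and 6.63 with 1 library left out. Its adjusted p was 0.199 in edgeR (Benjamini-Hochberg), 0.000390 in DESeq2, 0.298 in limma and 0.000620 in edgeR without TG 2. Over the alternatives it ran from 1.41e-36 to 0.924. The lowest was from edgeR without the low-count filter, and the bias-adjusted form of that fit gave 0.155. As a share of the summed phosphodiesterase FPKM, Pde11a held 3.84, 0.293 and 3.31% in the TG libraries, against 0.0620, 0.0403 and 0.0156% in the WT libraries.

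Pde1a, activated by calcium and calmodulin, had 5.599, 4.13 and 5.06 CPM in the TG libraries, against 2.21, 3.30 and 1.49 CPM in the WT libraries. The lowest TG value lay above the highest WT value. Its log2 fold change was 1.12 (SE 0.33), with an edgeR adjusted p (Benjamini-Hochberg) of 0.245 that ran from 0.0225 to 0.965 over the alternatives. The lowest was from edgeR without the low-count filter, and the bias-adjusted form of that fit gave 0.225. Pde2a, which cyclic GMP stimulates, was at 22.2, 13.0 and 24.0 CPM in the TG libraries, against 11.9, 15.2 and 10.6 CPM in the WT libraries, with TG 1 and TG 3 above every WT library and TG 2 among them. The fold change of Pde2a was 0.64 (SE 0.28) on the log2 scale and 0.90 without TG 2, where its edgeR adjusted p was 0.0251 (from 0.0251 to 0.9997 over the alternatives). Pde2a shares 150 exonic bases with Arap1 on the same strand, so reads there cannot be told apart. Pde3a, best known from heart and platelets, was at 14.05, 7.78 and 18.5 CPM in the TG libraries, against 7.56, 9.504 and 4.73 CPM in the WT libraries, with TG 2 within the WT range and TG 1 and TG 3 above it. It was the 1 gene of the set whose TG effect differed between the tables at an unadjusted p under 0.05 in the interaction test of edgeR, where 1.53% of all genes did so in the same direction and 0 genes passed after adjustment. Pde1b had 1.74, 1.75 and 3.03 CPM in the TG libraries, against 2.11, 3.48 and 3.33 CPM in the WT libraries, each TG library being below the WT libraries of its table.

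Of the 7 genes for subunits of phosphodiesterases that prefer cyclic GMP, 4 were tested. Pde5a, the target of sildenafil, was the most abundant, at 35.3, 67.7 and 39.4 CPM in libraries TG 1, TG 2 and TG 3, against 80.6, 62.6 and 57.6 CPM in libraries WT 1, WT 2 and WT 3. TG 1 and TG 3 were below every WT library and TG 2 was among them. The log2 fold change was -0.50 (SE 0.25) in edgeR with all libraries and -0.82 without TG 2, where the adjusted p was 0.0294 (Benjamini-Hochberg; from 0.0294 to 0.9997 over the alternatives).

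Pde6a encodes the alpha subunit of the phosphodiesterase of rod photoreceptors. It was at 10.3, 2.78 and 9.34 CPM in the TG libraries, against 0.486, 0.792 and 0.569 CPM in the WT libraries, from 297, 70 and 225 counts in TG and 9, 18 and 13 in WT. Every TG library was above every WT library, with TG 2 the lowest of the TG libraries. The log2 fold change of Pde6a was 3.57 (SE 0.57), and its adjusted p was 0.199 in edgeR (Benjamini-Hochberg) and 4.14e-07 in DESeq2. Over the alternatives it ran from 6.79e-19 to 0.924. The lowest was from edgeR without the low-count filter, and the bias-adjusted form of that fit gave 0.155. For TG 2 alone, the ratio to WT 1 and WT 2 was 4.25 (95% exact interval, for counting error alone, 2.69 to 6.89). The partner subunits of the rod enzyme, Pde6b and Pde6g, and the cone subunit Pde6h did not pass the filter, with 1 to 8 counts per TG library and 0 to 12 per WT library. Pde6c, the cone catalytic subunit, and Pde9a, an enzyme specific to cyclic GMP, were tested and were scarce, with mean levels of 1.07 and 1.08 CPM in TG, against 0.525 and 0.595 CPM in WT. The genes with a Pde symbol that act on other substrates were even, with log2 fold changes of -0.19 for Pde6d, a carrier of lipid-modified proteins, -0.11 for Pde12, a mitochondrial RNA deadenylase, and -0.10 for Pde4dip, a centrosomal and Golgi protein.

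**Figure D5:**
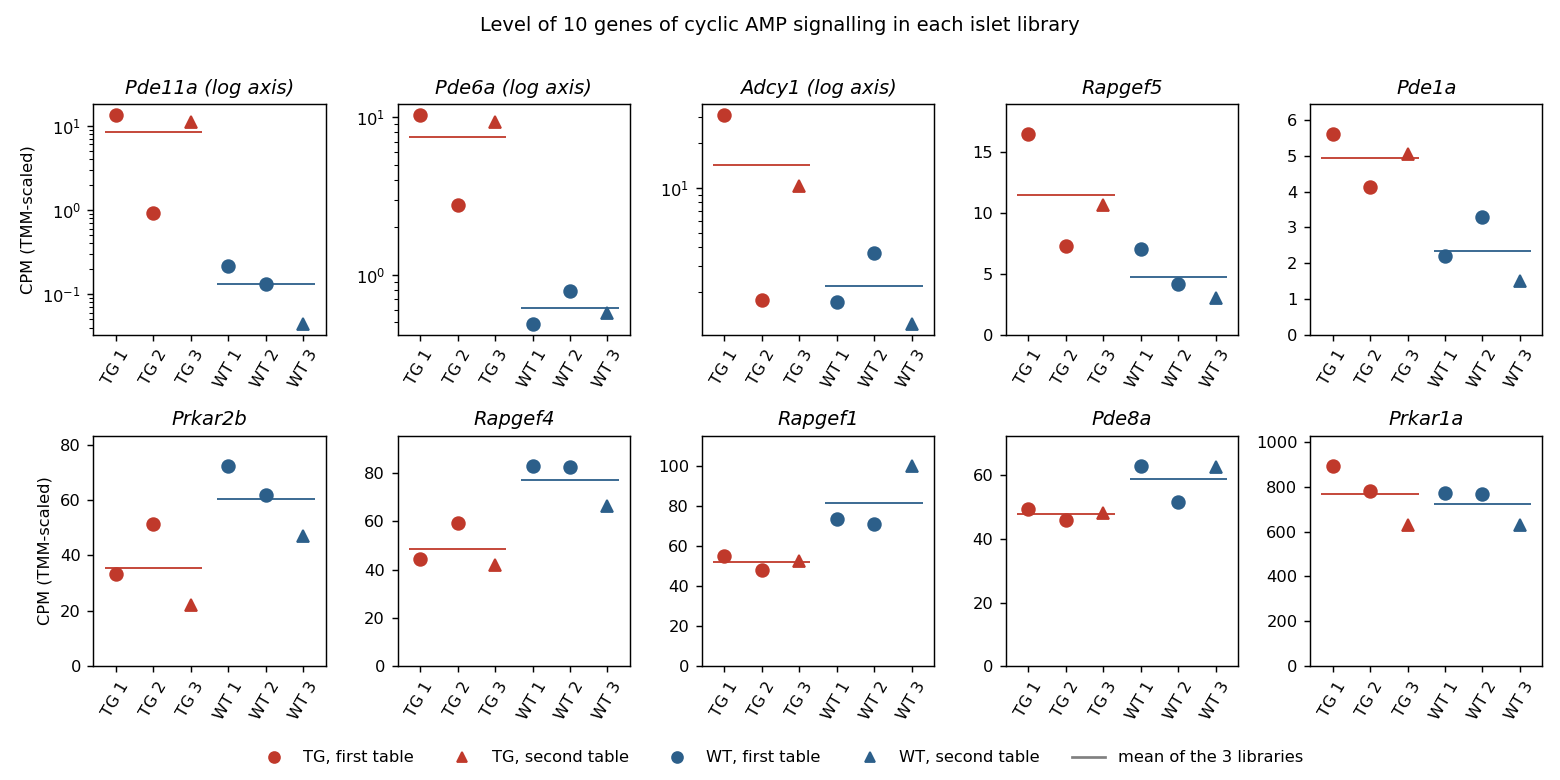
CPM of 10 genes in each library, with TG in red left of WT in blue, circles for the first table, triangles for the second and lines for the group means; the panels of Pde11a, Pde6a and Adcy1 have a log axis and the others start at 0. TG 1 and TG 3 are far above WT for Pde11a, Pde6a and Adcy1, TG 2 lies nearer to WT, and Prkar1a is even.

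The PKA subunits differed little between TG and WT islets, apart from the regulatory subunit Prkar2b. Prkar1a, the type I alpha regulatory subunit whose loss in humans causes Carney complex, was the most abundant gene of the set per length. It was at 893, 783 and 629 CPM in libraries TG 1, TG 2 and TG 3, against 770.2, 766 and 631 CPM in libraries WT 1, WT 2 and WT 3, and the genotypes overlapped. Its log2 fold change was 0.08 (SE 0.16), and it held 74.9 ± 6.70% of the summed regulatory-subunit FPKM in TG and 72.9 ± 4.30% in WT (SD, n = 3 each). Prkar1b had 143, 105 and 216 CPM in the TG libraries, against 132, 118 and 182 CPM in the WT libraries, both highest in the second table. Prkar2a, the widely expressed type II subunit, was at 54.8, 46.7 and 53.2 CPM in the TG libraries, against 47.2, 45.0 and 50.8 CPM in the WT libraries, with a log2 fold change of 0.12 (SE 0.13).

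Prkar2b (chromosome 12, 31958476 to 32061296, minus strand), the type II beta regulatory subunit known from brain and fat, was at 33.4, 51.3 and 22.04 CPM in the TG libraries, against 72.3, 61.7 and 47.1 CPM in the WT libraries. In each table the TG libraries were below the WT libraries, although TG 2 was above WT 3 of the other table. TG islets averaged 35.6 ± 14.8 CPM, against 60.4 ± 12.7 CPM in WT islets (SD, n = 3 each). Its log2 fold change was -0.81 (SE 0.20), and the fits that leave out a library gave -1.05 to -0.66. The adjusted p was 0.221 in edgeR (Benjamini-Hochberg), 0.0314 in DESeq2 and 0.00488 in edgeR without TG 2. Over the alternatives it ran from 0.000521 to 0.924. The lowest was from edgeR without the low-count filter, and the bias-adjusted form of that fit gave 0.233. Among the regulatory subunits Prkar2b held 3.49, 6.11 and 2.78% of the FPKM in TG 1, TG 2 and TG 3, against 8.25, 7.28 and 6.01% in WT 1, WT 2 and WT 3. Its 3′ UTR holds the 2 seed matches printed above. No exonic base of it is shared with another annotated gene.

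The catalytic subunits were even. Prkaca, the alpha subunit, had 119, 95.8 and 93.3 CPM in the TG libraries, against 112, 104 and 106 CPM in the WT libraries, with a log2 fold change of -0.07 (SE 0.14). Prkacb, the beta subunit, was at 378, 406 and 279 CPM in the TG libraries, against 469, 391.7 and 302 CPM in the WT libraries, with -0.13 (SE 0.15). For both, the genotypes overlapped, and per length each gave about as much of the catalytic FPKM as the other, with Prkaca at 52.7 ± 4.65% in TG and 51.8 ± 4.93% in WT (SD, n = 3 each). The summed FPKM of the catalytic subunits was 90.6, 84.1 and 79.2 in the TG libraries, against 97.2, 85.5 and 89.0 in the WT libraries. For the regulatory subunits it was 250.1, 219.6 and 237 in the TG libraries, against 228, 221 and 237 in the WT libraries.

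Of the 15 AKAPs, which tether PKA to sites in the cell, 13 were tested, with 6 fitted higher and 7 lower in TG and a median log2 fold change of -0.07. The most abundant per length were Akap8l and Akap8, nuclear proteins, and Akap11, which binds type I PKA and is degraded by autophagy. Akap8l was at 52.8, 51.7 and 95.1 CPM in the TG libraries, against 52.1, 49.7 and 72.6 CPM in the WT libraries. Akap8 had 61.8, 85.9 and 73.1 CPM in the TG libraries, against 77.9, 74.0 and 79.9 CPM in the WT libraries. Akap11 was at 202, 212 and 143 CPM in the TG libraries, against 229, 194 and 137 CPM in the WT libraries. For these 3 the genotypes overlapped, and the log2 fold changes were 0.16, -0.07 and 0.0018 for Akap8l, Akap8 and Akap11.

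Akap5, which anchors PKA and calcineurin at the plasma membrane and takes part in insulin secretion in mice, was scarce, at 0.591, 1.07 and 0.706 CPM in libraries TG 1, TG 2 and TG 3, against 0.648, 1.19 and 1.05 CPM in libraries WT 1, WT 2 and WT 3. The genotypes overlapped, and the log2 fold change of Akap5 was -0.30 (SE 0.42). Akap1, on the outer mitochondrial membrane, was at 17.3, 16.6 and 18.5 CPM in the TG libraries, against 17.5, 19.4 and 32.5 CPM in the WT libraries. Each TG library was below the WT libraries of its table, narrowly in the first table, and the log2 fold change was -0.35 (SE 0.19).

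Akap17b, an X-linked AKAP, had 30.2, 25.5 and 16.8 CPM in the TG libraries, against 18.7, 16.5 and 9.81 CPM in the WT libraries. In each table the TG libraries were above the WT libraries, and TG 3 was within the WT range of the first table. Its log2 fold change was 0.70 (SE 0.15), with an adjusted p of 0.199 in edgeR (Benjamini-Hochberg) and 0.00808 in DESeq2, within a range of 0.00808 to 0.924 over the alternatives. Akap3, known from the sperm tail, was at 0.869, 0.476 and 1.37 CPM in the TG libraries, against 0.324, 0.0440 and 0.482 CPM in the WT libraries. It had 70 counts in TG and 18 in WT, a ratio of 3.19 (95% exact interval, for counting error alone, 1.88 to 5.70). Its log2 fold change was 1.74 (SE 0.60), and TG 2 was level with WT 3 and the other TG libraries were above every WT library. Akap12, a scaffold also called gravin, was at 38.0, 8.89 and 15.5 CPM in the TG libraries, against 8.37, 10.6 and 10.6 CPM in the WT libraries. TG 1 stood far above all others and TG 2 was within the WT range. The fitted log2 fold change of 1.06 (SE 0.51) was 0.19 without TG 1 and 1.41 without TG 2. The remaining tested AKAPs had log2 fold changes between -0.30 (Akap6) and 0.25 (Akap7). Akap4 and Akap14 did not pass the filter, Akap4 having counts in TG 3 and WT 3 and 0 in the first table's libraries.

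Among the RAPGEF genes, Rapgef4 and Rapgef1 were lower and Rapgef5 was higher in TG, in opposite directions within a small family. Rapgef4 (chromosome 2, 71981240 to 72257474) encodes the Epac isoform of neurons and endocrine cells, which binds cyclic AMP and promotes insulin granule exocytosis. It had 44.5, 59.5 and 41.8 CPM in libraries TG 1, TG 2 and TG 3, against 82.9, 82.5 and 66.3 CPM in libraries WT 1, WT 2 and WT 3. The highest TG library, TG 2, was below the lowest WT library, WT 3. TG islets averaged 48.6 ± 9.52 CPM, against 77.2 ± 9.46 CPM in WT islets (SD, n = 3 each), and the log2 fold change was -0.67 (SE 0.15), from -0.80 to -0.56 with each library left out in turn. Its adjusted p was 0.199 in edgeR (Benjamini-Hochberg), 0.0143 in DESeq2 and 0.00961 in edgeR without TG 2. Over the alternatives it ran from 0.00671 to 0.924. The lowest was from edgeR without the low-count filter, and the bias-adjusted form of that fit gave 0.208. An antisense gene, Rapgef4os2, shares 337 exonic bases with Rapgef4 and had 4 to 11 counts per library.

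Rapgef1 (chromosome 2, 29619720 to 29740978), an exchange factor for Rap proteins recruited by Crk adaptors that does not bind cyclic AMP, was at 55.0, 48.4 and 52.7 CPM in the TG libraries, against 73.5, 71.3 and 100.2 CPM in the WT libraries. All TG libraries lay below all WT libraries, and TG 2 was the lowest. The log2 fold change was -0.63 (SE 0.15), from -0.73 to -0.49 with each library left out in turn. Its adjusted p was 0.199 in edgeR (Benjamini-Hochberg), 0.0180 in DESeq2 and 0.0455 in edgeR without TG 2. Over the alternatives it ran from 0.0114 to 0.924. The lowest was from edgeR without the low-count filter, and the bias-adjusted form of that fit gave 0.204. When TG 2 and WT 1 were left out together the edgeR adjusted p was 0.0787.

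Rapgef5 (chromosome 12, 117516479 to 117756978), another Rap exchange factor, was at 16.4, 7.30 and 10.6 CPM in the TG libraries, against 7.07, 4.14 and 2.98 CPM in the WT libraries. TG 2, the lowest TG library, was just above WT 1, the highest WT library. The log2 fold change was 1.33 (SE 0.39), with an adjusted p of 0.245 in edgeR (Benjamini-Hochberg) and 0.0278 in DESeq2. Over the alternatives the adjusted p ran from 0.000161 to 0.947. The lowest was from edgeR without the low-count filter, and the bias-adjusted form of that fit gave 0.235. With 1 library left out the fold change lay between 1.01 and 1.66. By FPKM, Rapgef5 made up 11.9 ± 4.21% of the family in TG and 3.97 ± 1.74% in WT, while Rapgef4 made up 30.7 ± 7.17% in TG and 38.8 ± 4.83% in WT (SD, n = 3 each). Rapgef3, the other Epac gene, was scarcer, at 5.49, 5.40 and 15.4 CPM in the TG libraries, against 4.48, 6.60 and 8.19 CPM in the WT libraries, with TG 3 above all others and the rest overlapping. Rapgef2, Rapgef6 and Rapgefl1 had log2 fold changes of 0.13, 0.04 and 0.22.

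Creb1, the transcription factor phosphorylated by PKA, had 82.1, 99.03 and 58.4 CPM in libraries TG 1, TG 2 and TG 3, against 93.1, 84.1 and 69.5 CPM in libraries WT 1, WT 2 and WT 3. Crem, whose short forms repress CREB targets, was at 46.5, 83.4 and 26.4 CPM in the TG libraries, against 63.1, 55.9 and 34.0 CPM in the WT libraries. For both, TG 2 was the highest library and TG 3 the lowest, and the log2 fold changes were -0.06 (SE 0.14) for Creb1 and -0.04 (SE 0.24) for Crem. The counts do not separate the forms of Crem.

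The cyclic AMP response element TGACGTCA, the sequence that CREB binds, was searched in the promoters of the RefSeq table (GRCm38.p6), from 250 bases before to 50 bases after the start. It was present in 1 of 55 cyclic AMP genes with a promoter there (1.82%), against 404 of 11243 tested genes (3.59%). The gene was Prkar1a, with the element in capitals at chr11:109650900-109650907 on the plus strand.
Prkar1a, promoter: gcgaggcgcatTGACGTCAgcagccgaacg

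The shorter core TGACG, on either strand and including copies within the full element, was present in 18 of 55 (32.7%), against 34.3% of all 11243 promoters. Prkar1a itself was even between TG and WT, as given above. No match in this window says only that these letters are not in it.

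Other genes of the pathway were read from lists chosen with earlier results of these data known. A list of G protein subunits and receptors that act on adenylyl cyclase, together with Rgs2 and Ric8b, had 19 tested genes. Of these, 4 were higher and 3 lower in TG at an unadjusted p under 0.05 in edgeR. The shares of all genes were 9.32% higher and 4.81% lower, and 0 of the 19 passed after adjustment. DESeq2 called 2 higher and 2 lower (backgrounds of 3.83% and 0.846%). Without TG 2, edgeR called 5 higher and 5 lower of the full list of 20 (8.82% and 4.39%). The 5 higher included Sstr5, which did not pass the low-count filter with all libraries. The receptor for the gut hormone GLP, Glp1r, was at 53.7, 83.3 and 93.4 CPM in libraries TG 1, TG 2 and TG 3, against 144, 123 and 149 CPM in libraries WT 1, WT 2 and WT 3, with all TG libraries below all WT libraries and a log2 fold change of -0.87 (SE 0.20). Gnai2, an inhibitory G protein subunit, had 347, 463 and 398 CPM in the TG libraries, against 582, 636 and 1242 CPM in the WT libraries, also with no overlap, and its log2 fold change was -0.94 (SE 0.27). The third lower gene, Galr1, an inhibitory galanin receptor, had a log2 fold change of -0.38 (SE 0.14).

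Gpr119, a receptor coupled to the stimulatory G protein, was at 54.0, 48.7 and 46.8 CPM in the TG libraries, against 31.5, 28.1 and 15.2 CPM in the WT libraries, so that every TG library was above every WT library. Gnai1, another inhibitory subunit, was at 85.9, 33.8 and 63.6 CPM in the TG libraries, against 27.5, 29.9 and 18.6 CPM in the WT libraries, and Gnas, the stimulatory subunit, had 192, 83.8 and 241 CPM in the TG libraries, against 66.5, 94.7 and 136 CPM in the WT libraries. For Gnai1 the genotypes did not overlap, and for Gnas TG 2 lay within the WT range. Their log2 fold changes were 1.06 (SE 0.20), 1.29 (SE 0.35) and 0.79 (SE 0.31) for Gpr119, Gnai1 and Gnas, and that of Adcyap1r1, the receptor of the peptide PACAP, was 1.55 (SE 0.51). Their adjusted p in edgeR were 0.199, 0.233, 0.326 and 0.266, and those of the lower genes Glp1r, Gnai2 and Galr1 were 0.199, 0.238 and 0.298 (Benjamini-Hochberg).

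Of 7 tested PKA inhibitors and other proteins that bind cyclic AMP, edgeR gave an unadjusted p under 0.05 for 3, all higher in TG, against 9.32% of all genes. DESeq2 called 1 of the 7 higher, against 3.83% of all genes, and 0 lower, against 0.846%. Without TG 2, edgeR called 2 of the full list of 13 higher, against 8.82%, and 0 lower, against 4.39%. Cnga4 was 1 of these 2, and it did not pass the low-count filter with all libraries. Pkia and Pkib, peptide inhibitors of the PKA catalytic subunit, were at 58.4, 70.8 and 42.7 CPM and 22.7, 14.9 and 14.2 CPM in the TG libraries, against 54.6, 47.7 and 25.4 CPM and 11.2, 11.04 and 5.65 CPM in the WT libraries. For Pkib every TG library was above every WT library, with a log2 fold change of 0.94 (SE 0.23), and for Pkia it was 0.47 (SE 0.16). Hcn4, a channel gated by cyclic nucleotides, was at 20.6, 19.1 and 83.7 CPM in the TG libraries, against 17.2, 14.5 and 28.0 CPM in the WT libraries. In each table the TG libraries were above the WT libraries, but TG 1 and TG 2 lay within the range of all WT libraries. The log2 fold change of Hcn4 was 0.75 (SE 0.27). The adjusted p in edgeR were 0.272, 0.216 and 0.295 for Pkia, Pkib and Hcn4.

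Of 11 CREB partners, kinases and phosphatase subunits, DESeq2 called 0 (backgrounds of 3.83% higher and 0.846% lower), as did edgeR without TG 2 (8.82% and 4.39%). In edgeR with all libraries, 1 gene had an unadjusted p under 0.05, against 4.81% of all genes lower. It was the CREB relative Atf1, at 39.4, 41.5 and 35.0 CPM in the TG libraries, against 48.3, 52.6 and 53.3 CPM in the WT libraries. Of 16 tested genes that cyclic AMP is known to induce through CREB, 13 were fitted higher, against 48.1% of all genes, and 3 were higher at an unadjusted p under 0.05, against 9.32%, with 0 lower, against 4.81%. DESeq2 called 2 of this list higher, against 3.83% of all genes, and edgeR without TG 2 called 5, against 8.82%. Both called 0 lower, against 0.846% and 4.39%. The 3 were Ppargc1a, a coactivator of mitochondrial genes, Irs2, an adaptor of the insulin receptor, and Bdnf, a neurotrophin. They were at 5.64 ± 2.46, 95.8 ± 44.0 and 7.44 ± 1.42 CPM in TG, against 2.58 ± 1.10, 48.4 ± 8.12 and 2.79 ± 1.62 CPM in WT (SD, n = 3 each). For Bdnf every TG library was above every WT library. For Irs2, TG 2 lay within the WT range at 47.3 CPM, and for Ppargc1a TG 3 did so at 2.99 CPM. The median log2 fold change of this list was 0.47, against -0.01 over all genes tested. Of 12 Epac and Rap partners, Rap1gap, which inactivates Rap, was higher with a log2 fold change of 0.94 (SE 0.26), and Pclo, a scaffold of the active zone that binds Epac, was lower with -0.55 (SE 0.16), both at an unadjusted p under 0.05. At that threshold edgeR gave 9.32% of all genes in the higher and 4.81% in the lower direction. Of the 12 partners, DESeq2 called 1 higher, against 3.83% of all genes, and 1 lower, against 0.846%. Without TG 2, edgeR called 2 of them higher, against 8.82%, and 0 lower, against 4.39%. With all libraries, none of the genes of these lists passed after adjustment in edgeR, whose adjusted p for Atf1, Ppargc1a, Irs2, Bdnf, Rap1gap and Pclo were 0.255, 0.199, 0.256, 0.244, 0.234 and 0.239.

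Markers of other islet and pancreatic cell types also differed between TG and WT libraries. The summed level of 5 delta- and PP-cell markers was 26268, 13229 and 36362 CPM in libraries TG 1, TG 2 and TG 3, against 8389, 9567 and 8358 CPM in libraries WT 1, WT 2 and WT 3. All 5 were fitted higher, and every TG sum was above every WT sum. Ppy and Pyy made up most of the sum in every library. For Ppy, Pyy and Rbp4 every TG library was above every WT library, while for Sst and Hhex TG 2 lay within the WT range. Sst was at 4133, 2158 and 4321 CPM in the TG libraries, against 1737, 2262 and 3668 CPM in the WT libraries. The 9 duct markers summed to 1952, 1490 and 1533 CPM in the TG libraries, against 1046, 772 and 689.5 CPM in the WT libraries, with 8 fitted higher. The 9 stellate and fibroblast markers summed to 178, 32.9 and 135 CPM in the TG libraries, against 24.6, 63.4 and 76.4 CPM in the WT libraries. Only TG 1 and TG 3 were above every WT library in that sum, and TG 2 was among them.

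The 9 endothelial markers summed to 341, 309 and 554 CPM in the TG libraries, against 301, 417 and 262 CPM in the WT libraries, and the 8 Schwann-cell markers to 33.4, 21.1 and 40.3 CPM in the TG libraries, against 15.3, 18.7 and 25.1 CPM in the WT libraries. Endothelial sums were highest in TG 3 and overlapped between the genotypes, and TG 1 and TG 3 had the highest Schwann-cell sums. The 7 alpha-cell markers summed to 48035, 29902 and 22819 CPM in the TG libraries, against 18811, 27395 and 25617 CPM in the WT libraries. For these, TG 1 and TG 2 lay above every WT library and TG 3 lay within the WT range. Acinar markers were between 300.5 and 5120 CPM in TG and between 126 and 7067 CPM in WT, lowest in both libraries of the second table, and macrophage and lymphocyte markers were between 29.8 and 49.9 CPM in TG and between 32.9 and 106 CPM in WT. At least 1 library had 0 counts of the acinar marker Prss1, the Schwann-cell marker S100b and the T-cell marker Cd3e. The part of the beta-cell and other marker levels in the fold changes of Pde11a, Pde6a, Adcy1, Rapgef5, Prkar2b, Rapgef4 and Rapgef1 was not tested.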

How the data were processed

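Messenger RNA of mouse islets was sequenced in 3 TG and 3 WT libraries, per the labels from 3 µg of RNA each with a NEBNext Ultra kit. The submitters' processing notes name CASAVA 1.8, HISAT2 and the mouse build GRCm38 (mm10). How reads were assigned to genes, with which strand setting and gene models, was not given in the sources used here. The authors deposited raw counts per gene, a normalized signal that was close to the count times 1 factor per library, and FPKM values made from it per table, per the file headers and the values. Because the signal and the FPKM were above 0 for some genes with 0 counts, tests and CPM levels used the counts, and FPKM served only for shares within a library.

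The main test was the quasi-likelihood F-test of edgeR 4.0.16 (R 4.3.3) after filterByExpr by genotype and TMM scaling, with terms for table and genotype and a Benjamini-Hochberg threshold of 0.05 over 16072 genes. The SE was derived from the F statistic as the absolute fold change over its square root. DESeq2 1.42.0, limma 3.58.1 (voom), RLE size factors, no filter, the bias-adjusted fit, no table term, the first table alone and each library left out were alternatives, and leaving out TG 2 with WT 1 was added after seeing the data. The log2 difference of a library from its own table's WT mean used CPM plus 0.5. The scripts were tested on simulated counts. All rows named a gene, and every pair of libraries differed beyond sampling noise. A count of 0 allows up to 3 counts.

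The members and lists were chosen with earlier results of these data known. Genes were named if among the 3 highest by mean FPKM of their role, among the 8 higher or 8 lower in TG with the smallest p, or of textbook importance in beta cells, and others were given by range or named after their values were seen. GENCODE M21 matched all 66 genes, 50 with the same start and end as in the files, and 20 shared exonic bases with another gene, so their reads may be split.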

Additional observations from a re-analysis of the deposited data

How the results depend on the processing

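Depth was similar across libraries, and the number of calls turned on TG 2. At these depths scarce genes such as Pde6h, Akap3 and the WT side of Pde11a rest on few counts. Over the alternatives, 520 fold changes of the 43 named and tested members kept their direction and their side of the threshold, 36 kept their direction and passed the threshold, and 46 changed sign. No paired analysis was possible because the labels give the genotypes no shared replicate numbers, and the table was a term instead.

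edgeR called 0 genes higher and 0 lower. DESeq2 called 616 higher and 136 lower over all genes, and 4 and 3 of the cyclic AMP genes. Without the low-count filter edgeR called 1300 and 372 genes, and 9 and 3 cyclic AMP genes, while its bias-adjusted form on the same genes called 0. Without TG 2 and WT 1 together it called 1146 and 451 genes, and 5 and 3 cyclic AMP genes. With each library left out in turn, the counts ran from 0 to 1461 higher and from 0 to 727 lower over all genes, and from 0 to 10 and from 0 to 4 over the cyclic AMP genes, each above 0 only without TG 2. The interaction of table and genotype called 0 genes, and 137 without the filter. The causes were not tested.

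The fold changes that changed sign were mostly near 0 with all libraries. With the first table only, the log2 fold change was -0.028 for Akap11, 0.032 for Creb1, 0.13 for Crem, -0.0080 for Prkar1b, -0.026 for Rapgef3, -0.036 for Rapgef6, -0.0032 for Pde7a and -0.53 for Adcy4. Without a table term it was -0.0058 for Akap11, 0.030 for Crem and 0.024 for Adcy9. Without the filter, in either form, it was -0.013 for Akap11. Without TG 2 and WT 1 together it was 0.0045 for Prkaca, 0.12 for Adcy9 and 0.087 for Pde3b. With each library left out it ran from -0.054 to 0.10 for Akap11, from -0.23 to 0.049 for Akap8, from -0.18 to 0.032 for Creb1, from -0.37 to 0.14 for Crem, from -0.033 to 0.22 for Prkar1b, from -0.031 to 0.56 for Rapgef3, from -0.042 to 0.11 for Rapgef6, from -0.0083 to 0.21 for Pde7a, from -0.54 to 0.53 for Adcy4, from -0.16 to 1.48 for Adcy8, from -0.18 to 0.081 for Adcy9, from -0.17 to 0.10 for Pde3b and from -0.20 to 0.033 for Pde12.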
